A study of Mus musculus with 5 samples.

Results

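The genes described here are 50 mouse genes of central carbon metabolism, out of 21887 protein-coding genes on assembled chromosomes. They are 19 genes of glycolysis, 14 of the citric acid cycle, 9 of the pentose phosphate pathway and 8 of the hexosamine pathway. They were taken from a list of pathway members, and their spans come from RefSeq genes on GRCm38.p6, whose positions are those of mm10. The study precipitated chromatin from C57Bl/6 BMM, a usual short form of bone marrow macrophages that the labels do not spell out, using either an antibody to c-Maf or, as isotype control, normal rabbit IgG, and sequenced the DNA. The source and cell type labels call the cells polarized in vitro to M2, the alternative state, whereas every title carries M0. The labels do not settle which holds, and name no genotype, age, culture time or polarizing agent. There were 2 c-Maf antibody libraries and 2 isotype libraries, each pair with the numbers 3 and 4, and 1 input library of number 4. The series text calls the 2 numbers biological replicates. Peak lists measure no RNA, so the cell type label could not be checked against marker expression.

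Depth hardly differed between the 4 antibody libraries, with 21655683 to 22017759 tags after filtering. List length did. The c-Maf antibody lists held 23434 peaks (number 3) and 17620 (number 4), and the isotype lists 58732 and 15568. With 2 libraries against 2, an exact permutation test over libraries cannot give a p below 0.33. Counts of genes are therefore given as descriptions, each beside the same count over all protein-coding genes.

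c-Maf is a basic leucine zipper transcription factor that binds Maf recognition elements in DNA and is expressed in macrophages. Glycolysis splits glucose to pyruvate in the cytosol. The citric acid cycle oxidizes acetyl groups in mitochondria. The pentose phosphate pathway makes NADPH and ribose phosphate, and the hexosamine pathway makes UDP-N-acetylglucosamine, the sugar donor for glycosylation. Macrophages shift the balance between these routes as they change state, and alternative activation is known for sustained mitochondrial oxidation and for use of UDP-N-acetylglucosamine.

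Within 50 kb of these genes the c-Maf antibody peaks were about as dense as near all protein-coding genes and about as strong as over the whole lists. Those of the 2 libraries seldom lay at the same place, which was not compared with all genes. In the gene or within 5 kb of it, 7 of 50 genes had a peak in both c-Maf antibody libraries, namely Hk1, Aco1, Suclg2, Sdhc, Gfpt1, Gfpt2 and Uap1. In both isotype libraries 2 of 50 did, Suclg2 and Fh1. Among all protein-coding genes the shares were 12.0% for the c-Maf antibody and 13.6% for the isotype. Longer genes have wider windows, and the members had a median length of 22140.5 bp against 17169 bp for all genes. Given the share of all genes in the same of 10 classes of gene length, 4.41 members would be expected for the c-Maf antibody and 5.16 for the isotype. The Wilson 95% interval of the share, which covers counting error over genes only, was 6.95% to 26.2% for the c-Maf antibody and 1.10% to 13.5% for the isotype. Both intervals hold the length-based expectations of 8.83% and 10.3%. These expectations lie below the 12.0% and 13.6% of all genes, although the members' median length is greater.

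Within the gene span alone, 5 members had peaks in both c-Maf antibody libraries and 1 in both isotype libraries, against 9.93% and 11.3% of all genes. Within 20 kb the counts were 12 and 8, against 20.2% and 23.2% of all genes, and 8.64 and 10.3 expected by length. Within 50 kb they were 22 and 15, against 39.3% and 42.5% of all genes. For the c-Maf antibody 18.6 were expected by length. For the isotype the Wilson interval of the share, 19.1% to 43.8%, holds the length-based expectation, which lies near its upper end. At the gene span 3.3 and 3.92 were expected by length. The c-Maf antibody count thus stood above the length-based expectation at each window and the isotype count below it. The windows are nested, so these are not separate observations. For both antibodies the Wilson interval of the share held the length-based expectation at every window. For the c-Maf antibody it also held the share of all genes at every window, and for the isotype only within 20 and 50 kb. Since the isotype list of number 3 is by far the longest, the lists were also cut to their 15568 strongest peaks, the length of the shortest. Then 5 members (9.24% of all genes) had both c-Maf antibody peaks within 5 kb and 1 (8.15% of all genes) both isotype peaks. Within 50 kb the counts were 16 (29.4% of all genes) and 8 (25.3% of all genes). Only Suclg2 had peaks in both libraries of each antibody within 5 kb as deposited.

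**Figure D1:**
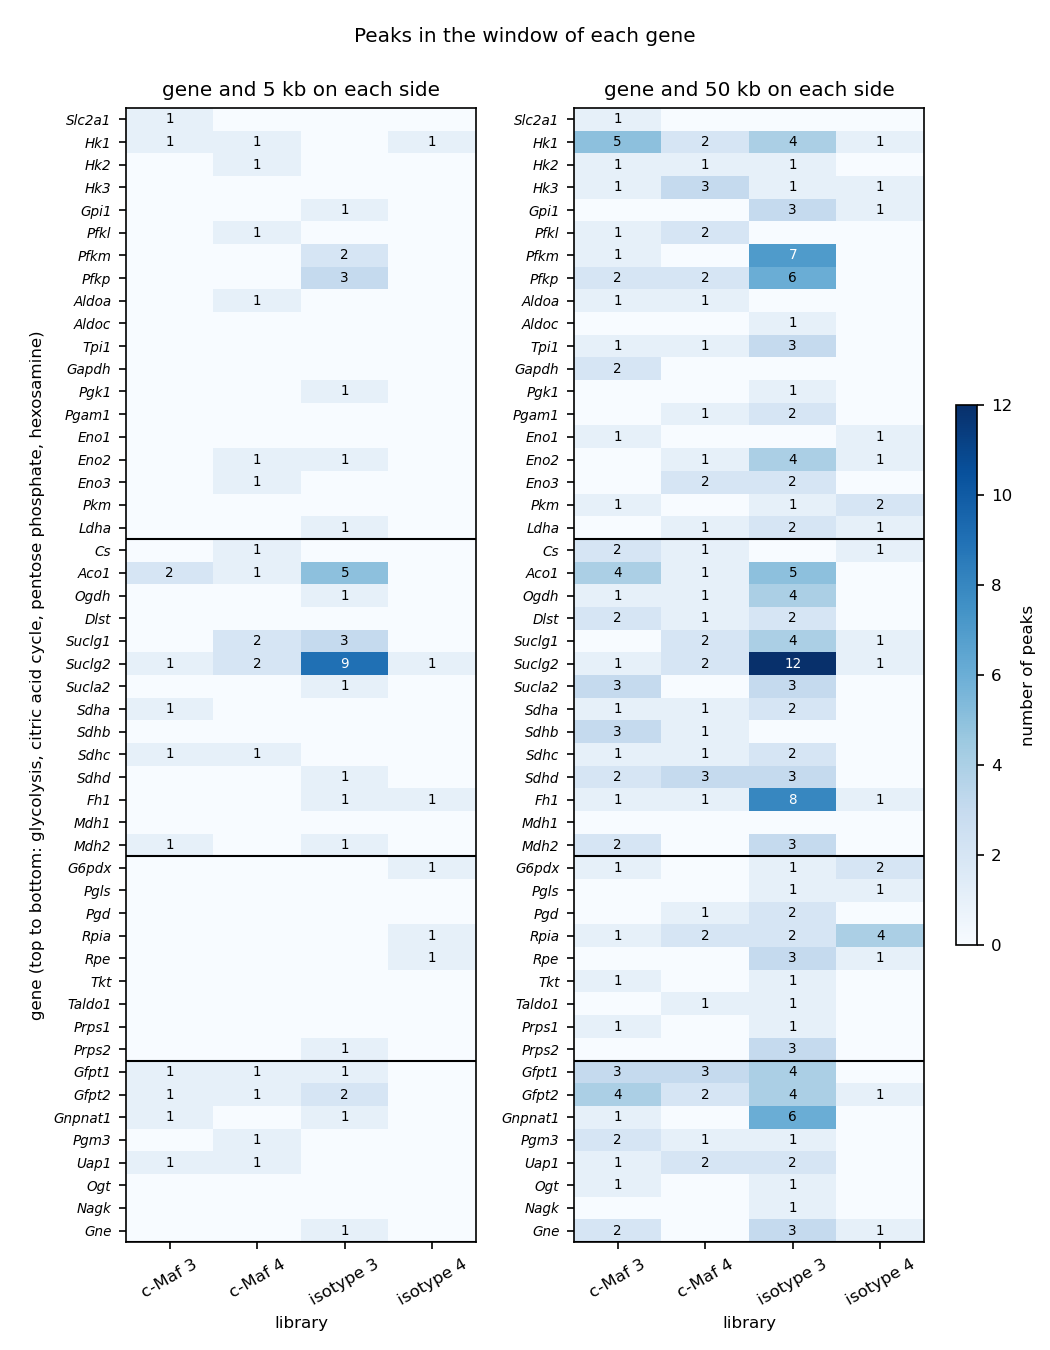
Number of peaks (colour and digit, blank for 0) in each of the 4 libraries, for the gene with 5 kb on each side (left) and with 50 kb on each side (right), with 1 row per gene and lines between the 4 pathways. The left panel is sparse, and its highest cell is 9 isotype peaks of number 3 at Suclg2, the longest gene.

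The same counts were taken by pathway, as a description. Of 8 hexosamine genes, 3 had both c-Maf antibody peaks within 5 kb, with 0.680 expected by length, and 0 had both isotype peaks, with 0.848 expected. Within 50 kb, 10 of 14 citric acid cycle genes had both c-Maf antibody peaks, with 5.50 expected, and 3 had both isotype peaks, with 5.87 expected. Among the 10 is Aco1, whose enzyme, the cytosolic aconitase, lies outside the mitochondrial cycle. Of 9 pentose phosphate genes, 0 had both c-Maf antibody peaks within 5 kb and 1 within 50 kb, with 3.08 expected, whereas 4 had both isotype peaks within 50 kb, with 3.35 expected. Glycolysis was at its expectation for the c-Maf antibody, with 7 of 19 genes and 7.00 expected within 50 kb, and at 6 with 7.49 expected for the isotype. Over 4 pathways and 4 windows there are 16 such shares per antibody. The Wilson interval left out the length-based expectation in 4 of 16 for the c-Maf antibody, which were hexosamine at the gene span, 5 kb and 20 kb and the citric acid cycle at 50 kb, and in 0 of 16 for the isotype. At equal list lengths the citric acid cycle interval at 50 kb held the expectation, with 7 of 14 genes, 26.8% to 73.2% and 29.5% expected. The hexosamine intervals at the gene span, 5 kb and 20 kb still left it out. They rest on the same few genes, Gfpt1 and Gfpt2 in the span with Uap1 added at 5 and 20 kb, and are not separate observations. With peaks of p 1e-05 or smaller, or of a q-value of 0.05 or smaller, 0 of 8 hexosamine genes had both c-Maf antibody peaks at any of the 4 windows. The citric acid cycle then had 2 of 14 (Aco1 and Sdhd) and 0 of 14 within 50 kb, with 0.424 and 0.0859 expected. At Aco1 the peaks of p 1e-05 or smaller were not at one site. That of number 3 lay 32.5 kb upstream of the gene and that of number 4 inside it. The interval of the 2 of 14, 4.01% to 39.9%, left out the expected 3.03%. At pentose phosphate genes 1 of 9, Rpia, also gave intervals without the expectation. These were for the c-Maf antibody at 20 kb with p 1e-05 or smaller (0.99% expected) and for the isotype at 50 kb with q-values of 0.05 or smaller (0.188% expected). The interval for 1 of 9 starts at 1.99%, so any single gene leaves out a smaller expected share. Nothing is concluded from these cases. The windows are nested, so these 16 shares are not independent, and no difference between pathways was tested. The intervals are approximate for lists of 8 to 19 genes and treat genes as independent. The lists were also chosen with earlier results of these data known. An interval without the expectation is therefore a description and not a test.

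**Figure D2:**
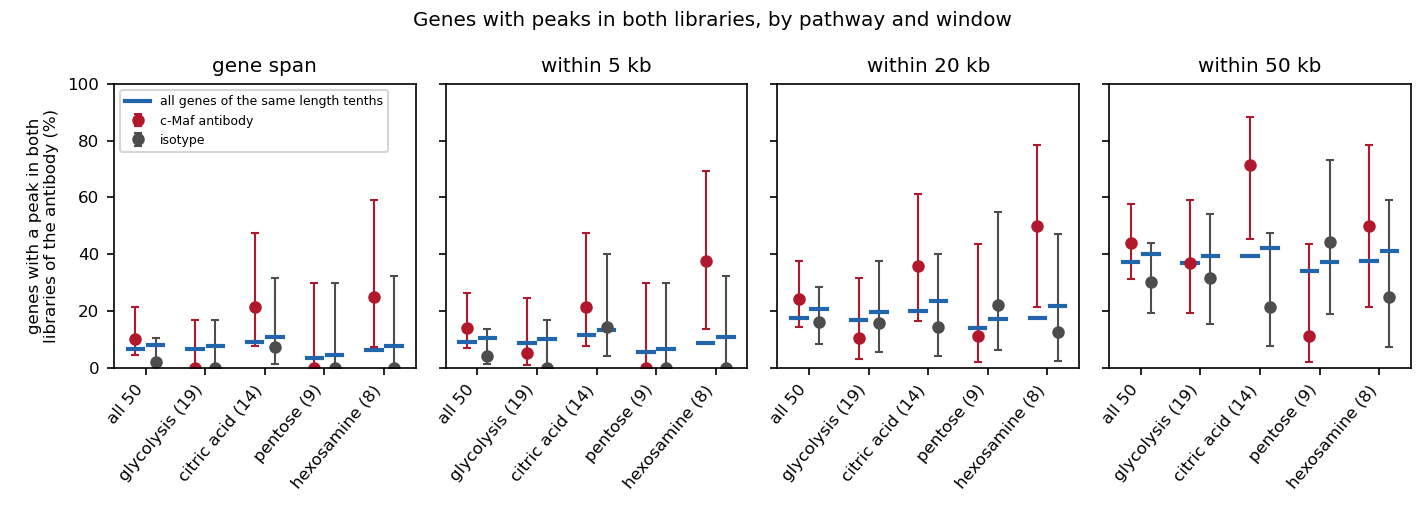
Share of genes with a peak in both libraries of an antibody (y axis, percent) by gene list (x axis) for the gene span and for 5, 20 and 50 kb around it, with Wilson 95% intervals as bars and blue marks for all protein-coding genes in the same classes of length. Hexosamine genes reach 37.5% within 5 kb for the c-Maf antibody and 0% for the isotype, with wide bars from only 8 genes.

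A peak in both libraries of an antibody seldom meant a shared site. For the 7 genes with both c-Maf antibody peaks within 5 kb, the closest summits of numbers 3 and 4 were 1.61 kb (Aco1) to 88.2 kb (Hk1) apart, with a median of 15.4 kb, so no pair lay within 1 kb. Within 50 kb, the closest summits of 22 genes were 8 bp to 58.7 kb apart for the c-Maf antibody, with 4 genes under 200 bp. For the 15 genes with both isotype peaks the median was 17.9 kb, and none was under 200 bp. The smallest was 1.43 kb, at Gfpt2. These distances were not set against those at all genes, so whether they are particular to the members was not tested.

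**Figure D3:**
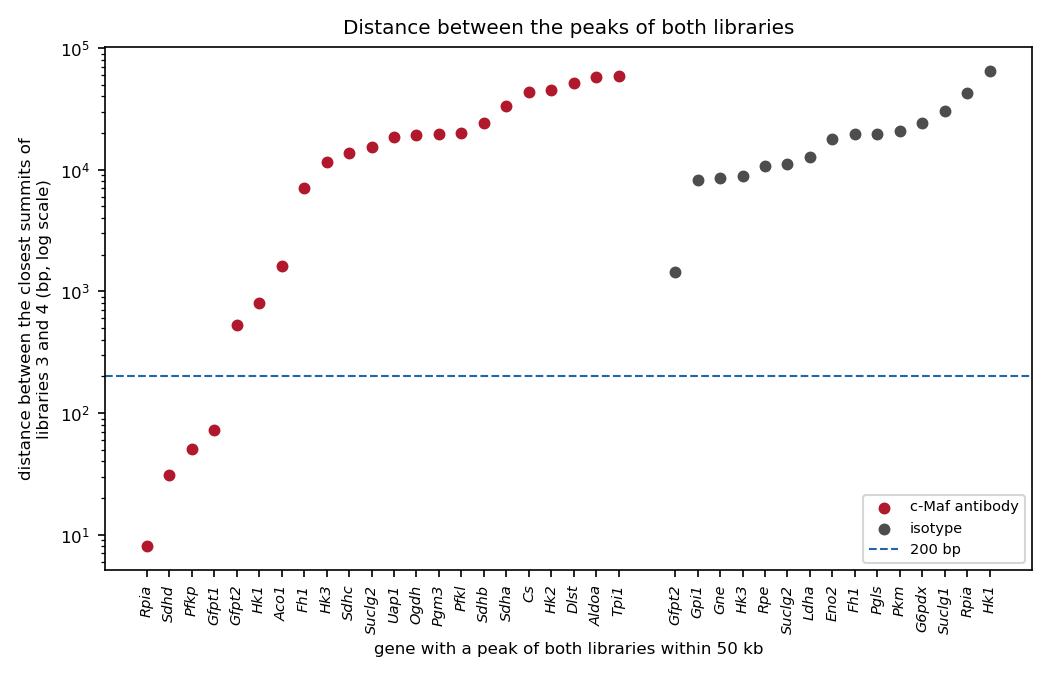
Distance in bp (log scale) between the closest summits of libraries 3 and 4 for every gene with a peak of both within 50 kb, for the c-Maf antibody (22 genes) and the isotype (15 genes). Rpia, Sdhd, Pfkp and Gfpt1 lie below the dashed line at 200 bp, and the other genes of both antibodies lie above it.

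In glycolysis, the glucose transporter gene Slc2a1 had 1 c-Maf antibody peak of number 3 inside the gene, with a fold enrichment (summit pileup over local input, as deposited) of 3.12, and no peak of any other library within 50 kb. Hk1, which encodes a hexokinase, the first enzyme of glucose breakdown, had a c-Maf antibody peak of number 3 inside the gene with a fold enrichment of 2.93. Its peak of number 4 lay 45 bp beyond the downstream end of the gene, with a fold enrichment of 4.60, and 1 isotype peak of number 4 lay inside the gene at 3.84. All 4 libraries therefore had a peak within 50 kb of Hk1, where the isotype library of number 3 reached a fold enrichment of 5.47 at 26.8 kb. At Hk2, the inducible hexokinase gene, a single peak was found within 5 kb, of c-Maf antibody number 4 at 4.23. Hk3, a hexokinase gene of blood cells, had none within 5 kb in any library.

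Among the phosphofructokinase genes, which encode the main control step of glycolysis, Pfkl had 1 c-Maf antibody peak within 5 kb (number 4, fold enrichment 4.33). Pfkm and Pfkp had 2 and 3 isotype peaks of number 3 and none of the c-Maf antibody there. At the aldolase gene Aldoa the only peak within 5 kb was of c-Maf antibody number 4, 4.20 kb upstream, with a fold enrichment of 3.15. Eno3, an enolase gene, had its only one 575 bp downstream in the same library at 2.98. Eno2, the enolase gene best known from neurons, had peaks of c-Maf antibody number 4 (3.35) and isotype number 3 (4.84) upstream, and these peaks also fall within 50 kb of its neighbour Tpi1. Tpi1, Gapdh, Pgam1, Eno1, Pkm and Aldoc, which encode other enzymes of the pathway, had no peak within 5 kb in any library. Ldha, the lactate dehydrogenase gene of glycolytic cells, and Pgk1 each had 1 isotype peak of number 3 inside the gene and no c-Maf antibody peak within 5 kb. Isotype number 4 had a peak 19.6 kb from Ldha with a fold enrichment of 5.45. Gpi1, the glucose phosphate isomerase gene, had 1 isotype peak of number 3 within 5 kb (2.76). Gpi1, Aldoc and Pgk1 had no c-Maf antibody peak even within 50 kb.

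In the citric acid cycle, Aco1 encodes the cytosolic aconitase, which doubles as iron regulatory protein 1. It held 2 c-Maf antibody peaks of number 3, with fold enrichments of 2.93 and 4.54, and 1 of number 4 at 5.56. It also held 5 isotype peaks of number 3, with fold enrichments of 2.75 to 4.84, and none of isotype number 4. Peaks of both antibodies thus lay inside Aco1. Fold enrichments are the authors' own values and are not scaled between lists.

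Suclg2 encodes the GTP-forming beta subunit of succinyl-CoA ligase and is the longest of the 50 genes, with a span of 245850 bp. It held 1 c-Maf antibody peak of number 3 at a fold enrichment of 4.35 and 2 of number 4 at 6.03 and 4.01. The isotype libraries had 9 peaks (number 3, 2.77 to 4.84) and 1 peak (number 4, 3.44). The peak at 6.03, on chromosome 6 at 95473967 to 95474039, lies at the downstream end of the gene. Among peaks inside the 50 genes, it alone reached a q-value of 0.05. The nearest peak of c-Maf antibody number 3 was 15.4 kb away. At Suclg1, the alpha subunit gene, 2 peaks of c-Maf antibody number 4 (4.94 and 3.20) and 3 of isotype number 3 lay within 5 kb. At Sucla2, the ATP-forming beta subunit gene, only isotype number 3 had a peak there, while c-Maf antibody number 3 had a peak 11.4 kb upstream with a fold enrichment of 5.85 and a −log10 q of 1.72.

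The succinate dehydrogenase genes, which link the cycle to the respiratory chain, differed from each other. Sdhc, which encodes a membrane anchor, was the member of this complex with both c-Maf antibody peaks within 5 kb, at fold enrichments of 3.22 and 2.97 and 13.7 kb apart inside the gene, and no isotype peak within 5 kb. Sdha, the flavoprotein gene, had 1 c-Maf antibody peak of number 3 at 3.77. Sdhb, the iron-sulfur subunit gene, had none within 5 kb, and Sdhd, the other anchor gene, had 1 isotype peak of number 3 at 3.46. Cs, the citrate synthase gene, had 1 c-Maf antibody peak of number 4 (3.21), and Mdh2, the mitochondrial malate dehydrogenase gene, 1 of number 3 (3.33) inside the gene and 1 isotype peak of number 3 (2.76) outside it. Ogdh, the 2-oxoglutarate dehydrogenase gene, had 1 isotype peak of number 3 (2.74), and Dlst, which encodes the succinyltransferase of the same complex, had none within 5 kb. Fh1, the fumarase gene, had both isotype peaks within 5 kb, at 3.46 upstream and 3.93 downstream, and no c-Maf antibody peak. Mdh1, the cytosolic malate dehydrogenase gene, was the 1 member with no peak of any library within 50 kb.

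In the pentose phosphate pathway no c-Maf antibody peak lay within 5 kb of any of the 9 genes, in 0.268 Mb of windows. At the density around all genes, 2.48 peaks of number 3 and 1.76 of number 4 would be expected there, so the absence covers few peaks. G6pdx, the gene of the first and rate-limiting enzyme, held 1 isotype peak of number 4 at a fold enrichment of 4.77. Rpia and Rpe, which encode the ribose phosphate isomerase and the ribulose phosphate epimerase, each held 1 isotype peak of number 4, at 4.00 and 3.40. Prps2, a phosphoribosyl pyrophosphate synthetase gene, held 1 of isotype number 3 at 2.77. The other 5 genes, Pgls, Pgd, Tkt, Taldo1 and Prps1, had no peak within 5 kb in any library.

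In the hexosamine pathway, Gfpt1 and Gfpt2 encode the glutamine-fructose-6-phosphate transaminases that open the pathway. Gfpt1 held c-Maf antibody peaks at fold enrichments of 3.89 (number 3) and 3.85 (number 4), 38.2 kb apart, and 1 isotype peak of number 3 at 2.77. Gfpt2 held c-Maf antibody peaks at 4.24 and 3.71, 3.05 kb apart, and 2 isotype peaks of number 3, at 3.44 and 3.46. Uap1, whose enzyme makes UDP-N-acetylglucosamine, had a c-Maf antibody peak of number 3 inside the gene (3.75) and one of number 4 2.60 kb downstream (3.74), with no isotype peak within 5 kb. Pgm3, the phosphoacetylglucosamine mutase gene, had 1 of number 4 (3.98). Gnpnat1, the acetyltransferase gene, had c-Maf antibody number 3 (3.91) and isotype number 3 (2.76) within 5 kb. Gne, whose enzyme starts sialic acid synthesis, had 1 isotype peak of number 3 (4.05). Ogt, which encodes the enzyme that attaches N-acetylglucosamine to proteins, and Nagk, the salvage kinase gene, had none. None of these peaks within 5 kb of a hexosamine gene had a q-value of 0.05 or smaller.

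Over all 50 genes, 10 had within 5 kb only c-Maf antibody peaks (12.7% of all genes, 7.49 members expected by length) and 14 only isotype peaks (22.1% of all genes, 12.7 expected). Peaks of both antibodies lay at 9 (26.5% of all genes, 11.8 expected), and 17 had none (38.7% of all genes, 18.1 expected). The peaks were as strong as those of the whole lists. The median fold enrichment of peaks within 50 kb was 3.89 and 3.96 for c-Maf antibody numbers 3 and 4, equal to the medians of those lists to 2 decimals. For the isotype it was 3.46, equal to the list, and 3.81, against 4.02 in the list of number 4. A q-value of 0.05 or smaller was reached by 2 of 59 peaks and 3 of 43 peaks of the c-Maf antibody, and by 1 of 120 and 1 of 22 of the isotype. Over the whole lists, 3.06% (number 3) and 2.87% (number 4) of c-Maf antibody peaks did so, and 0.415% and 2.62% of isotype peaks, so counts this small do not set the members apart. No member had such peaks in both c-Maf antibody libraries within 50 kb (0.599% of all genes). Rpia had them in both isotype libraries (0.201% of all genes), at fold enrichments of 6.22 (number 3, 48.4 kb downstream) and 6.00 (number 4, 8.27 kb upstream).

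Overlapping peaks, by 1 bp or more, were joined into regions across the 4 lists. A region is called c-Maf-only where numbers 3 and 4 of the c-Maf antibody each have a peak and the isotype has none, and isotype-only in the reverse case. The whole lists gave 491 c-Maf-only and 409 isotype-only regions. Within 5 kb, 0 members had a c-Maf-only region (1.22% of all genes, 0.540 members expected by length) and 0 an isotype-only region (0.585% of all genes). Within 20 kb, 2 members had a c-Maf-only region (1.89% of all genes) and 0 an isotype-only region (0.868% of all genes). Within 50 kb, 4 members had a c-Maf-only region (3.17% of all genes, 1.48 expected by length) and 0 an isotype-only region (1.45% of all genes, 0.626 expected). Each of the 4 pathways had 1 of the 4 members.

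One of the 4 regions lay 5.29 kb downstream of Sdhd, on chromosome 9 at 50590852 to 50591049 (mm10). Number 3 of the c-Maf antibody had a fold enrichment of 6.81 there and a −log10 q of 4.16. In number 4 the values were 4.94 and 0.86, which does not reach a q-value of 0.05. Summits were 31 bp apart, and the closest isotype peak, of number 3, was 3.60 kb away. Sdhd was the nearest gene, and Il18, a cytokine gene of macrophages, lay 9.01 kb from the region.

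The region near Rpia lay 19.9 kb upstream of the gene, on chromosome 6 at 70812034 to 70812140. The 2 libraries had fold enrichments of 5.20 and 6.03 there, and −log10 q of 0.87 and 1.72. Its summits were 8 bp apart. The next gene was Eif2ak3, which encodes a stress kinase of the endoplasmic reticulum, at 32.3 kb. Isotype number 4 had 4 peaks and number 3 had 2 within 50 kb of Rpia, the closest to the region 11.5 kb from it. Of the 4 loci, Rpia was the one where peaks of both antibodies reached a q-value of 0.05 or smaller.

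In each library the other 2 regions had lower fold enrichments than those near Sdhd and Rpia. The one near Pfkp, on chromosome 13 at 6674973 to 6675110, was 25.9 kb upstream of the gene, with fold enrichments of 3.91 and 3.35, and an isotype peak of number 3 lay 728 bp from it. The one counted for Gfpt1, on chromosome 6 at 87002898 to 87003048, was 39.8 kb upstream and lay inside another gene, Aak1, with Nfu1 also closer than Gfpt1. Its fold enrichments were 2.60 and 3.71. In both of these regions the −log10 q was 0 in both libraries.

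**Figure D4:**
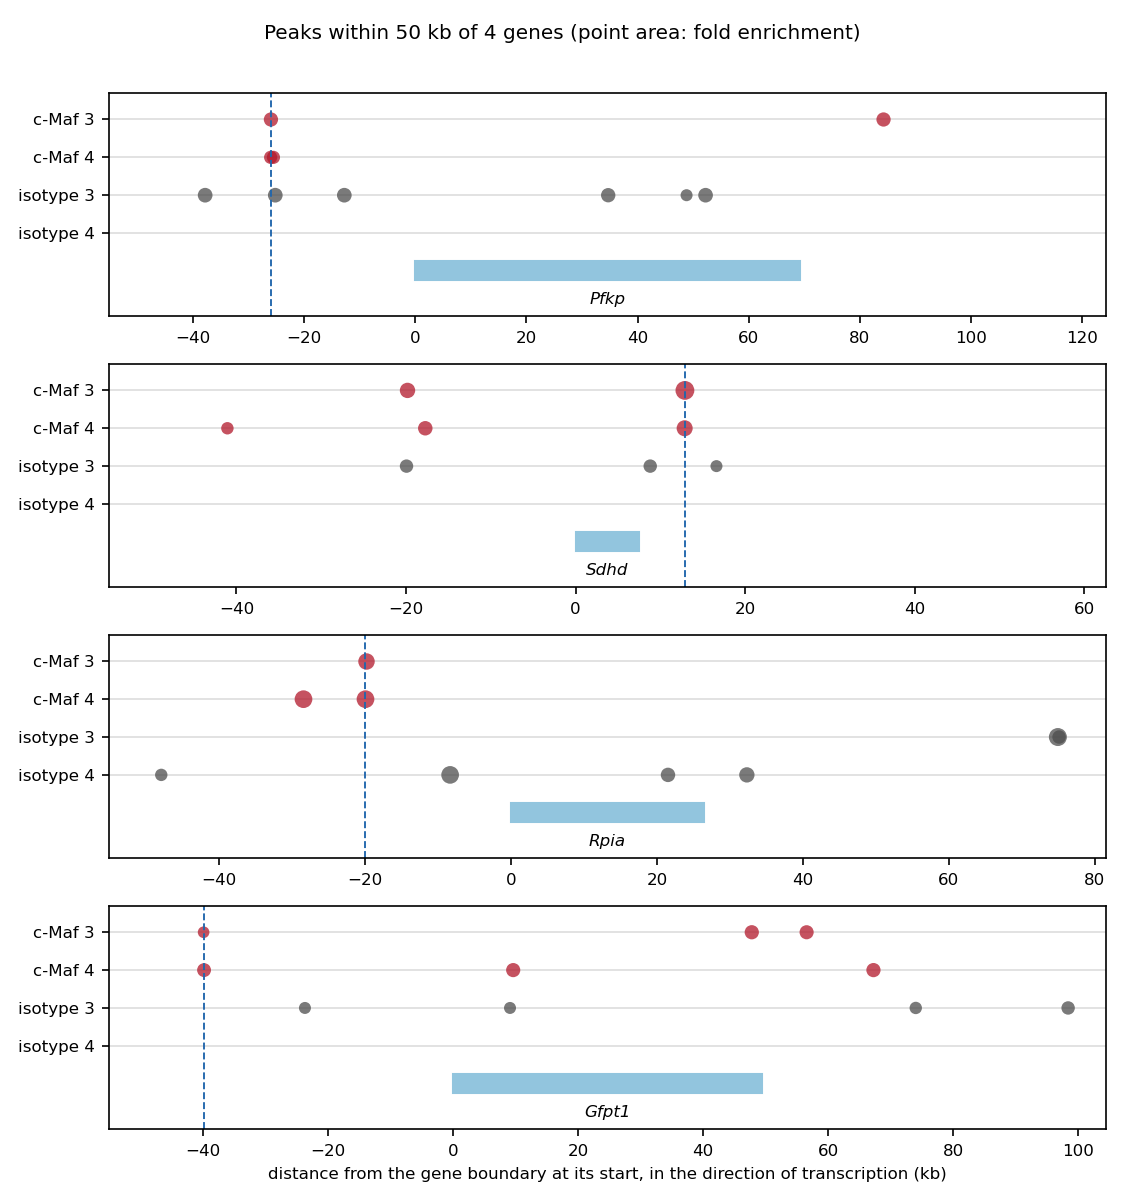
Peak summits of the 4 libraries within 50 kb of Pfkp, Sdhd, Rpia and Gfpt1, plotted by distance in kb from the boundary where the gene starts, in the direction of transcription. The blue bar is the gene, point area is proportional to fold enrichment, and the dashed line marks the c-Maf-only region, where points of c-Maf antibody numbers 3 and 4 coincide, 25.9, 5.29, 19.9 and 39.8 kb outside the gene.

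Gene starts were taken from a RefSeq promoter table, which holds 48 of the 50 genes, all but Sdhc and Gnpnat1. No c-Maf antibody peak lay within 1 kb of a start of these 48 genes. Over the 17492 genes counted by start, meant by all genes in this paragraph, the shares were 2.07% (number 3) and 1.35% (number 4). The isotype had 1 member, Pgk1, in number 3 (3.13% of all genes) and 0 in number 4 (1.01% of all genes). With 48 genes and shares this small, a count of 0 or 1 says little about the members. Within 5 kb of a start, c-Maf antibody number 3 had 1 member, Uap1 (8.83% of all genes), and number 4 had 3, Aldoa, Eno2 and Pgm3 (5.76%). Isotype number 3 had 7 members (15.3%) and number 4 had 1 (4.80%).

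The bases around these starts (250 before and 50 after) were searched on both strands for the palindromic Maf recognition elements T-MARE and C-MARE and for the shorter letters TGACTCA, which lie inside T-MARE, and TGCTGA, which open both elements. Neither long element was in a member, and they were in 1 and 0 of all 32851 promoters of the table. TGACTCA was found in 2 of 48 members (4.17%), against 5.95% of all 27025 genes and 5.20% of all promoters of the table. TGCTGA was found in 7 of 48 (14.6%), against 21.7% of these 27025 genes and 19.5% of all promoters. The promoters of the 2 members with TGACTCA are shown, because both genes had a c-Maf antibody peak within 5 kb of the gene but none within 1 kb of the start, together with that of Pgk1, the 1 member with any peak near its start. Capitals mark TGACTCA or its reverse complement, each sequence runs 5′ to 3′ on the strand of the gene, and the source is RefSeq, GRCm38.p6.
Aldoa promoter, chr7:126799205-126799504, minus strand: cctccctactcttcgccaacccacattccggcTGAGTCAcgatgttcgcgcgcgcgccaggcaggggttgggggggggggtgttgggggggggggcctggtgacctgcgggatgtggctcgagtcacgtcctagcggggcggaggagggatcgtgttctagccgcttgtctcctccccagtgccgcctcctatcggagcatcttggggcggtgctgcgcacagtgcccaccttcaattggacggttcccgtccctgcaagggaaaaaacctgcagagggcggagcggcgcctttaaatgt
Gfpt2 promoter, chr11:49793905-49794204, plus strand: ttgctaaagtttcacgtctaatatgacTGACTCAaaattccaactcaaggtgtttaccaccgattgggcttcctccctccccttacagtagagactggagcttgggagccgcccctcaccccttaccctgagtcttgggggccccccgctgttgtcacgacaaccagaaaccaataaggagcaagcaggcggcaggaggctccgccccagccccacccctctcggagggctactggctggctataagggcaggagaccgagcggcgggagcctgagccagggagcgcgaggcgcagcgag
Pgk1 promoter, chrX:106186850-106187149, plus strand: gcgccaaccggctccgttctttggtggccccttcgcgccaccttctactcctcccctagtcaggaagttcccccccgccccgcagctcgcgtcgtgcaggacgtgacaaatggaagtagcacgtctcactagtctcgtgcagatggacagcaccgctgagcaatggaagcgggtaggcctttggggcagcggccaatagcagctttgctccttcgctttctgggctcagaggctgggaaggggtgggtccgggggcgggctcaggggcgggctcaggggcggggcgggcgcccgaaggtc
These 3 were chosen after their values were seen. The match starts at position -218 from the gene start in Aldoa, at the second of its 3 listed starts, and at -223 in Gfpt2. The c-Maf antibody peaks inside Gfpt2 had their summits 19233 bp (number 3) and 16180 bp (number 4) from the start, and that near Aldoa 4773 bp from the closest listed start. The isotype peak at Pgk1 had its summit 958 bp from the start. A match of letters is a description of the window and no evidence of a bound site.

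To set libraries of different list length side by side, the peaks per Mb of the members' merged windows were divided by those of the windows of all protein-coding genes in the same library. Within 50 kb, in 6.47 Mb, this relative density was 0.972 (59 peaks) and 0.986 (43 peaks) for c-Maf antibody numbers 3 and 4. It was 0.838 (120 peaks) and 0.580 (22 peaks) for the isotype. The exact Poisson 95% intervals, for counting error only, were 0.740 to 1.25 and 0.714 to 1.33 for the c-Maf antibody, and 0.694 to 1.00 and 0.364 to 0.878 for the isotype. Both c-Maf antibody libraries thus had peaks near these genes at the density found near all genes, and both isotype libraries lay lower. The mean was 0.979 ± 0.0098 (SD, n = 2) against 0.709 ± 0.182 (SD, n = 2), a difference of 0.27 (exact permutation test, two-sided, p = 0.33, the smallest possible).

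By pathway the relative density within 50 kb was 1.26 ± 0.204 for the c-Maf antibody and 0.629 ± 0.435 for the isotype at hexosamine genes (SD, n = 2 each here and below). It was 1.16 ± 0.0795 and 0.707 ± 0.521 at citric acid cycle genes, and 0.927 ± 0.139 and 0.636 ± 0.0658 at glycolysis genes. At pentose phosphate genes the order was the reverse, with 0.473 ± 0.110 for the c-Maf antibody and 0.947 ± 0.451 for the isotype. In each of these 4 pathways the 2 libraries of one antibody lay on the same side of both libraries of the other, and each comparison had p = 0.33 in the exact permutation test, adjusted p = 0.33 over 5 comparisons. At equal list lengths that separation remained at citric acid cycle genes (1.02 ± 0.256 against 0.555 ± 0.305) and hexosamine genes (1.25 ± 0.0414 against 0.404 ± 0.117). The libraries overlapped at glycolysis genes (0.895 ± 0.181 against 0.779 ± 0.268) and pentose phosphate genes (0.538 ± 0.126 against 0.713 ± 0.782). With peaks of p 1e-05 or smaller the order of the means turned round at glycolysis genes (0.168 against 0.740) and pentose phosphate genes (1.77 against 1.04). For the deposited lists within 50 kb, the Poisson intervals of both c-Maf antibody libraries included 1, the density around all genes, at each of the 4 pathways. Those of the isotype lay below 1 at glycolysis genes in number 3 (0.475 to 0.949) and at citric acid cycle genes in number 4 (0.0923 to 0.867).

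**Figure D5:**
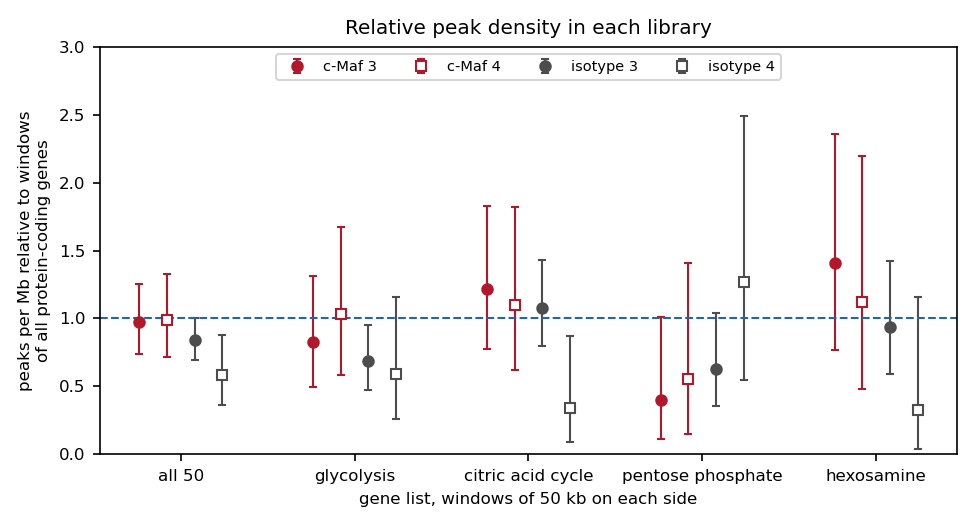
Peaks per Mb within 50 kb of the genes of each list, relative to the windows of all protein-coding genes in the same library (dashed line at 1), with exact Poisson 95% intervals, for c-Maf antibody and isotype libraries 3 (filled circles) and 4 (open squares). Over all 50 genes the c-Maf antibody points sit at 0.972 and 0.986 and the isotype points at 0.838 and 0.580.

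A further 64 genes of the same and adjoining pathways (such as the isocitrate dehydrogenase genes, the pyruvate dehydrogenase subunits and Oga) were counted in the same way. Within 5 kb, 7 had both c-Maf antibody peaks, with 6.12 expected, and 7 both isotype peaks, with 7.22 expected. Within 50 kb the counts were 22 with 24.2 expected and 29 with 26.1 expected. For 21 further glycolysis genes, 14 had both isotype peaks within 50 kb, with 8.34 expected and a Wilson interval of 45.4% to 82.8% that leaves out the expected 39.7%, and 9 had both c-Maf antibody peaks, with 7.63 expected. The hexosamine genes of this second list had 0 of 12 with both c-Maf antibody peaks within 5 kb, where 0.479 were expected. Of its citric acid cycle genes, 8 of 19 had both c-Maf antibody peaks within 50 kb, with 7.96 expected. Within 5 kb, 1 of the 64, Idh1, had a c-Maf-only region, where 0.715 were expected by length. The fold enrichment there was 6.32 in number 3 and 6.68 in number 4, with −log10 q of 3.23 and 2.70. An isotype-only region lay at 0 of the 64, where 0.298 were expected. Both counts were thus close to their expectations and do not single out this list. The region near Sdhd also lies 43.6 kb from Dlat, which encodes a subunit of pyruvate dehydrogenase.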

How the data were processed

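Peaks were called by the authors separately in each of 4 antibody libraries with MACS 2.1.1.20160309, with the number 4 input as control for all, a p-value cut-off of 0.01 and the human effective genome size, per the file headers. The genome mm10 and the tools FastQC, MACS2 and MACS 1.4.2 are named in the submitters' processing notes, and no aligner is named in the sources used here. The deposited pileup is a scaled tag signal at the summit, the deposited fold enrichment is its ratio to the local input, and −log10 p-values and q-values are as deposited. The headers say that q-values would not be calculated, but the deposited column holds values, which are used as they stand. These scores are the authors' and were ranked within a list only. Peak length was read from the deposited coordinates. The weak p-value cut-off means that most peaks rest on few tags (median pileup 3.92 to 5.92 scaled tags).

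A gene counted when each library of an antibody had a peak overlapping its window by at least 1 bp. Windows were the RefSeq span and 5, 20 and 50 kb on each side. The expectation by length sums, over members, the share of all protein-coding genes in the same of 10 classes of gene length. The top class is wide, so the expectation is rough for the longest genes. The gene table has no exons, so exon and intron are not given. Counting was checked on simulated peaks. Python 3.11.15, pandas 2.3.3 and scipy 1.17.1 were used. The genes and lists were chosen with earlier results of these data known. Named are members with peaks in both libraries of an antibody within 5 kb, with exclusive regions or q-values of 0.05 or smaller within 50 kb, with the strongest peaks, or with none. Other members are named to account for each gene. The promoter search of members without a peak near the start was added after their values were seen. The sequence of the peaks was not analysed here.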

Additional observations from a re-analysis of the deposited data

How the results depend on the processing

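With peaks of p 1e-05 or smaller, members with both c-Maf antibody peaks numbered 0 within 5 kb and 3 within 50 kb, with 0.413 and 1.34 expected by length. Those with both isotype peaks numbered 0 and 1, with 0.437 and 1.38 expected. The c-Maf-only regions within 50 kb numbered 2. At q-values of 0.05 or smaller these were 0 and 0, 0 and 1, and 0, since stricter settings keep fewer peaks by construction. At equal list lengths the isotype counts fell to 1 and 8, because the longest list is cut most. With 50% reciprocal overlap, c-Maf-only regions numbered 2. With 1 library left out, a lone list decides: the c-Maf antibody counts ranged from 11 to 15 within 5 kb and 29 to 35 within 50 kb, the isotype counts from 6 to 19 and 17 to 42, c-Maf-only regions from 4 to 59, and isotype-only ones between 0 and 120. With 1 choice changed at a time, the difference in relative density stayed above 0, and leaving out 1 library gave 0.142 (without isotype number 4) to 0.399 (without isotype number 3). The antibodies' libraries overlapped at the gene span (0.201), at 5 kb (0.284) and with q-values of 0.05 or smaller (0.221). With p 1e-05 or smaller and 5 kb together the difference was -0.00476, and over all combinations of list and window it reached 1.82 (q-values, gene span). No label says that a number marks a shared animal or day, and with only 2 pairs the data cannot settle it. With the number as a replicate block the difference was 0.27 (0.135 in number 3 and 0.406 in number 4, exact sign-flip permutation p = 0.5, the smallest possible), so no call changed.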
